A study of Mus musculus with 12 samples.

Results

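The genes described here are those of the lysosome and its proton pump, the vacuolar ATPase (V-ATPase), in cultured mouse microglia. They were chosen by name, without a cut on measured values but with earlier results of these data known. The 39 symbols cover V-ATPase subunits, lysosomal membrane proteins, hydrolases and their cofactors other than cathepsins, the MiT/TFE transcription factors, and the autophagy receptor Sqstm1. Of the 39, 38 were among the 14541 genes with deposited values, and all 38 were tested among 11242 genes. Atp6v0c was not analysed here. The lowest member value in any library rested on 93 reads and the highest on 290723, and each of the 38 averaged at least 5 FPKM (read fragments scaled to gene length and library size, so that levels of genes can be compared per length).

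Microglia are the brain's own macrophages. They were taken with magnetic beads against CD11b from forebrains of pups aged 7 to 9 postnatal days and plated at 40000 to 80000 cells per well. Of 3 groups, 1 received 500 nM recombinant Hevin, a protein that astrocytes secrete, 1 received LPS (lipopolysaccharide from bacteria, at 50 ng/mL), which is sensed by Toll-like receptor 4, and 1 received an equal volume of growth Media, all for 6 h. All mice are labelled Wild-type, the labels give no strain, and wells are not tied to single animals. Each group held 4 poly(A) RNA libraries numbered 1 to 4, and the table's headers tie libraries of 1 number together across the groups, so the tests compare treatments within numbers. Whether a number stands for an animal, a litter or a culture is not in the labels, and the p-values below rest on the spread between these libraries, which may be technical. Because libraries are bulk samples, fewer cells of a type and less RNA per cell cannot be told apart. Below, a log2 fold change ± SE is a difference on the log2(FPKM + 1) scale, and "higher" or "lower" without other words means a limma adjusted p under 0.05 with the number as a block.

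A lysosome digests proteins, glycans and lipids with hydrolases that work at acid pH. The V-ATPase makes that acidity: its V1 sector, outside the membrane, splits ATP, and its V0 sector, in the membrane, carries the protons. The MiT/TFE factors (TFEB, TFE3, MITF and TFEC) bind short E-box sequences near the starts of many lysosomal genes, and their entry to the nucleus is held back by mTORC1 signalling at the lysosomal surface. In microglia this compartment breaks down engulfed cell debris and synaptic material.

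Promoter sequence was examined first, because the members include both these factors and genes described as their targets. RefSeq windows on build GRCm38.p6, from 250 bases before to 50 bases after a RefSeq start site, were found for 32 of the 39 members. Atp6v0d2, Atp6v1b2, Atp6v1c1, Atp6v1g1, Atp6v1h, Npc1 and Asah1 had none. The E-box CACGTG, which reads the same on both strands, stood in a window of 9 of the 32 members (28.1%), against 2187 of 27025 genes with a window (8.09%). The longer palindrome TCACGTGA, which contains CACGTG, stood in 5 members (15.6%), against 304 of those genes (1.12%). Among the 10912 listed genes with a window these shares were 11.3% and 2.06%. The 5 stretches below, from RefSeq and written 5′ to 3′ along each gene, show that longer motif in capitals. They are shown because these members span a proton pump subunit of each sector, an ion channel and a disease gene that share it.
Atp6v0d1: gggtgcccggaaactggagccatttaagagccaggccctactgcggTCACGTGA
Cln3: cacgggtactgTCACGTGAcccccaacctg
Mcoln1: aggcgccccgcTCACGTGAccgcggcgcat
Atp6v0e: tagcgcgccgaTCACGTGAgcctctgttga
Atp6v1a: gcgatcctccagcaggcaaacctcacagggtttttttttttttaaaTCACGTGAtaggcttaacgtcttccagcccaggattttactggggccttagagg
The Atp6v0d1 stretch lies at chr8:105566061-105566114 on the minus strand, with the motif beginning at base -4 from the start site. The Cln3 stretch (chr7:126583340-126583369, minus strand) begins its motif at base -122, Mcoln1 (chr8:3500462-3500491, plus strand) at base -46, and Atp6v1a (chr16:44139338-44139437, minus strand) at base -132. In Atp6v0e (chr17:26676387-26676416, plus strand) the motif begins at base 3 of the transcript. The 30 bases shown for Cln3, Mcoln1 and Atp6v0e lie in exons of the GENCODE M21 annotation, while the Atp6v0d1 and Atp6v1a stretches overlap none of theirs. Start sites here are those of RefSeq. In GENCODE M21 the Atp6v0e gene begins at chr17:26663231 and the Cln3 gene at chr7:126585817. The Mcoln1 gene begins at chr8:3500457 and the Atp6v1a gene at chr16:44139705 in that annotation. The stretches of Atp6v0e, Cln3, Mcoln1 and Atp6v1a thus lie inside their genes. The Atp6v0d1 stretch lies before the start of its gene at chr8:105566047. The windows of Cln3 and Mcoln1 each hold the 6-base core at 2 places. The other members with only the core were Atp6v0b, Gaa, Glb1 and Lamp1.

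In Hevin against Media, 9 of 38 members were higher and 6 lower. Across all genes tested 10.8% were higher and 10.6% lower. The 9 were hydrolases or cofactors (Hexa, Glb1, Asah1, Tpp1, Psap and Npc2), the membrane proteins Scarb2 and Laptm5, and Mitf. The 6 were V-ATPase subunits (Atp6v0d1, Atp6v0e, Atp6v1b2, Atp6v1e1 and Atp6v1h) and Sqstm1. The members' median log2 fold change was -0.03, against 0.00 for all genes tested. Without the block only Atp6v1h passed, so 0 were higher and 1 lower, where 4.27% and 3.1% of all genes passed. Without the 3 libraries numbered 2 the counts were 4 and 4, without those numbered 3 they were 1 and 2, and over the removal of any 1 library they ran from 3 to 10 and from 2 to 7. Atp6v1b2, Atp6v1h, Scarb2, Mitf and Glb1 passed whichever library was left out.

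Against Media, LPS gave 4 members higher (Atp6v1e1, Atp6v1h, Npc2 and Sqstm1) and 16 lower, where 21.5% of all genes were higher and 22.2% lower. Among hydrolases and cofactors 8 of 12 were lower and 1 higher. The median of the members was -0.17 and of all genes tested -0.02. Without the block 2 members were higher and 8 lower, against 13.2% and 12.6% of all genes. Set against LPS, Hevin had 17 members higher and 8 lower, where 29.9% of all genes were higher and 28.0% lower. The members' median was 0.13 and that of all genes 0.02. Without the block 16 members were higher and 5 lower, against 22.0% and 19.7% of all genes. Among the 7455 genes that average at least 5 FPKM, as all 38 members do, 26.7% were higher and 34.9% lower in Hevin against LPS. In that set 26.8% were higher and 22.0% lower in LPS against Media, and 11.4% and 13.8% in Hevin against Media. The comparisons against Media share the same 4 Media libraries.

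How the libraries are put on 1 scale decides part of the LPS results. The deposited FPKM values hold scaling factors of 0.804 to 0.897 in LPS, against 1.02 to 1.16 in Hevin and 1.02 to 1.11 in Media, which place LPS values higher than scaling to the total of reads alone would. With these factors removed the median log2 fold change of all genes in LPS against Media was -0.29 in place of -0.02, and with upper quartile scaling it was -0.12. Over all genes, 2416 were higher and 2498 lower in LPS against Media with the deposited scaling, 1765 and 3750 with upper quartile scaling, 1839 and 2731 with quantile normalization, and 1085 and 6328 with the factors removed. The split in Hevin against LPS was 3360 higher and 3149 lower with the deposited scaling, 4394 and 2357 with upper quartile scaling, 3342 and 2647 with quantile normalization, and 6355 and 1400 with the factors removed. All 16 falls in LPS against Media and all 17 rises in Hevin against LPS passed under each of these 4 scalings. But each of the other scalings moved the all-gene median of LPS against Media down, quantile normalization to -0.05. None tried moved it up, so whether these falls and rises would pass then was not tested. The 4 rises in LPS against Media did not pass under each scaling: each turned negative under at least 1 of them. Of the 8 falls in Hevin against LPS, Atp6v0b, Atp6v1a, Atp6v1b2, Atp6v1f and Lamp2 turned positive under quantile normalization and with the factors removed. The members' median stood below that of all genes in LPS against Media under each scaling, by 0.15 to 0.40 on the log2 scale (-0.15 deposited, -0.17 upper quartile, -0.20 with factors removed and -0.40 quantile). Upper quartile scaling and removal of the factors multiply each library by 1 factor, which shifts members and all genes nearly alike. Only quantile normalization could therefore change this gap much.

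**Figure D1:**
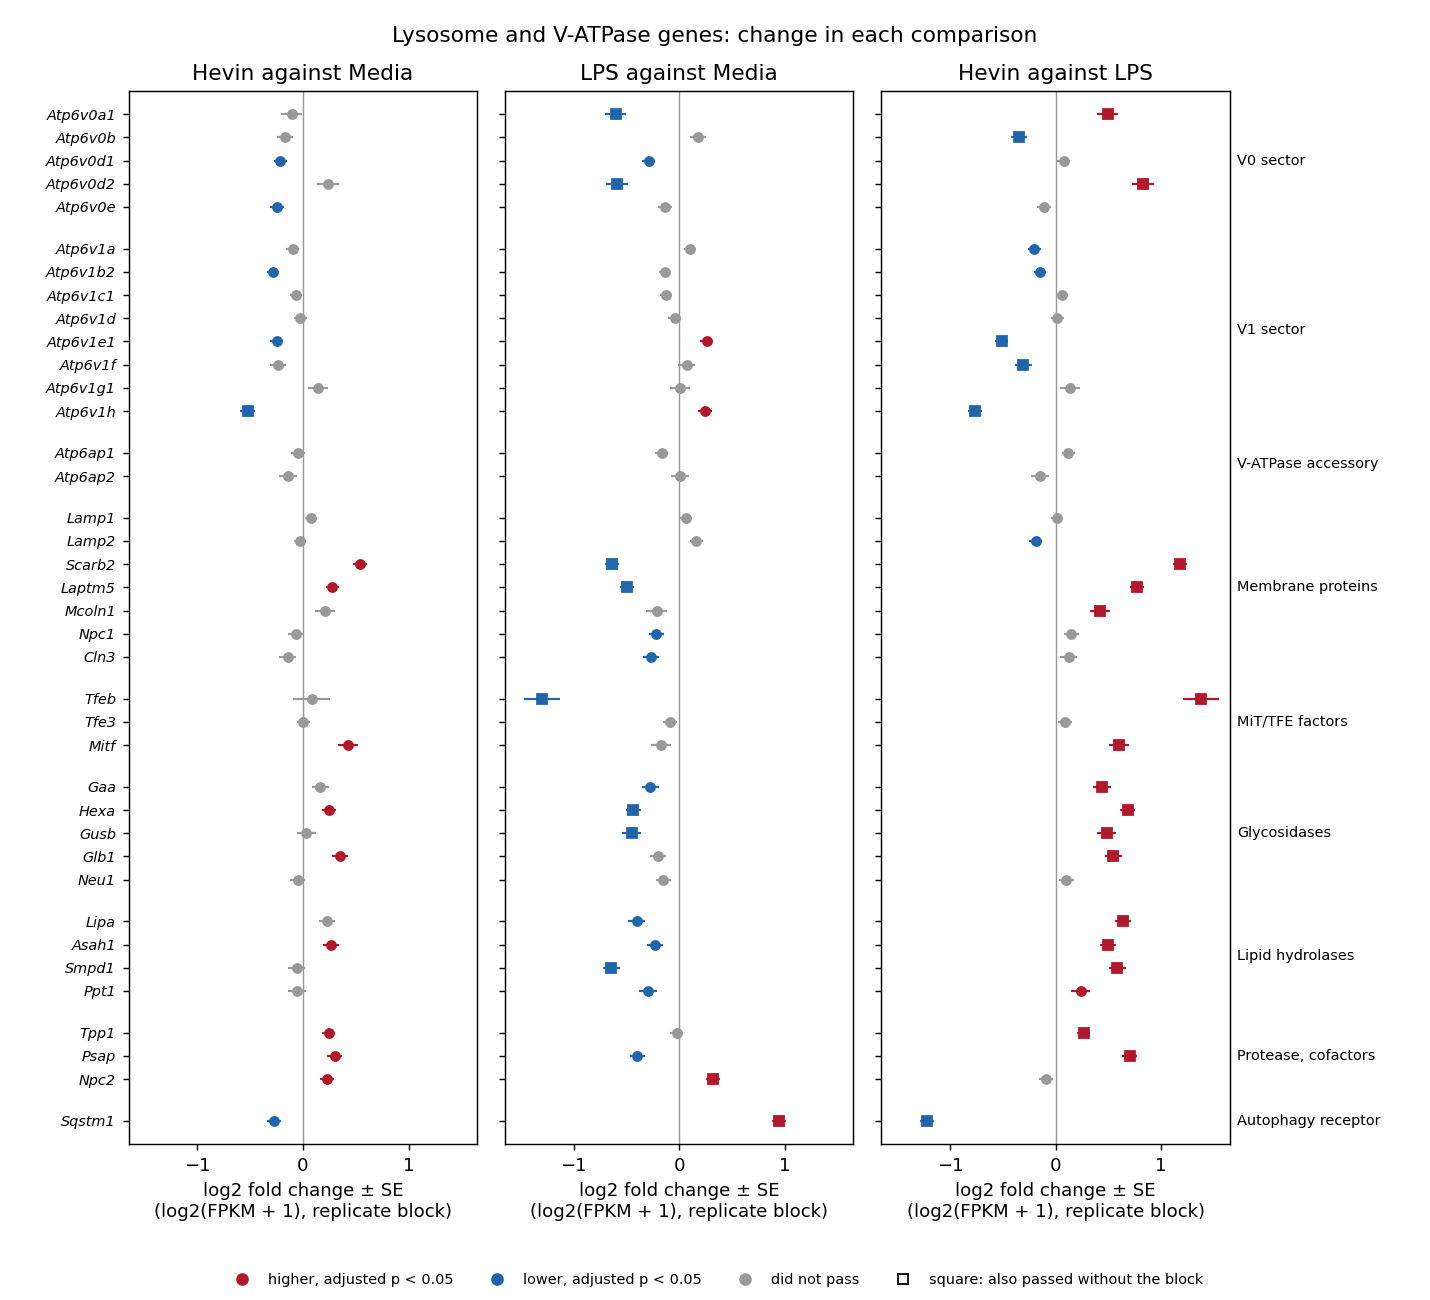
Log2 fold change ± SE on the log2(FPKM + 1) scale for the 38 members, grouped by role, in Hevin against Media, LPS against Media and Hevin against LPS. Red marks higher, blue lower and grey not past the 0.05 threshold in the fit with the block, and squares are calls that also held without it. In Hevin against Media 1 of the 15 coloured members is a square (Atp6v1h), and in LPS against Media the red members (Atp6v1e1, Atp6v1h, Npc2 and Sqstm1) turn negative under quantile normalization.

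**Figure D2:**
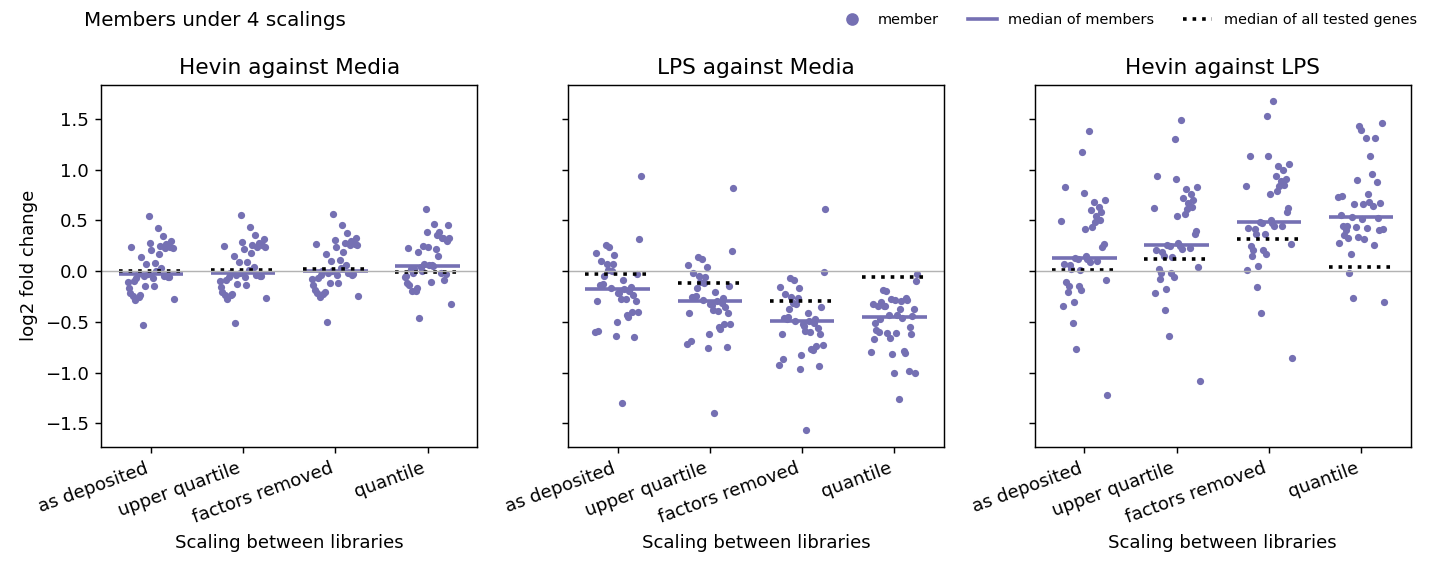
Log2 fold change of each member (points) under 4 scalings of the libraries, with the median of the members (solid line) and of all genes tested (dotted line), in each comparison. In LPS against Media the members' median lies below that of all genes under each scaling, while the points shift down with the factors removed and under quantile normalization, so that the members above 0 with the deposited scaling are mostly below it. Of the other scalings only quantile normalization could change the gap between the medians much. In Hevin against Media the members' median stays between -0.03 and 0.06.

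Of the MiT/TFE factors, Tfeb and Mitf passed in at least 1 comparison, and Tfe3 passed in none with the deposited scaling. Tfeb (chr17:47737030-47792419), the gene of the factor best known for driving lysosomal genes, had 13.8, 11.01, 8.30 and 12.02 FPKM in the Hevin libraries, 6.26, 5.34, 2.40 and 1.99 FPKM in the LPS libraries, and 12.6, 11.3, 7.92 and 10.5 FPKM in the Media libraries. Each LPS library lay below every Hevin and Media library, while Hevin and Media overlapped. Tfeb was lower in LPS than in Media (-1.30 ± 0.17, limma adjusted p = 1.40e-04) and higher in Hevin than in LPS (1.38 ± 0.17, limma adjusted p = 5.39e-05), and its difference between Hevin and Media was 0.082 ± 0.17 (limma adjusted p = 0.778). Mitf (chr6:97807052-98021349), named for its part in pigment cells and also known in osteoclasts and mast cells, had 44.6, 34.8, 31.0 and 34.5 FPKM in the Hevin libraries, 31.7, 28.6, 17.4 and 18.8 FPKM in the LPS libraries, and 37.4, 26.2, 21.0 and 24.1 FPKM in the Media libraries. Hevin exceeded Media and LPS within each number, but the 3 groups overlapped across numbers, with number 1 the highest in every group. Mitf was higher in Hevin than in Media (0.42 ± 0.095, limma adjusted p = 0.00937; without the block the adjusted p was 0.296) and than in LPS (0.60 ± 0.095, limma adjusted p = 3.05e-04). LPS against Media gave -0.18 ± 0.095 for Mitf (limma adjusted p = 0.156), which passed under the other scalings (-0.29 with upper quartile scaling, -0.29 with quantile normalization and -0.49 with the factors removed).

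Tfe3 (chrX:7762560-7775202), the relative that works in parallel with Tfeb in macrophages, had 75.8, 64.3, 66.9 and 73.4 FPKM in the Hevin libraries, 81.4, 63.5, 58.0 and 61.9 FPKM in the LPS libraries, and 79.7, 64.6, 64.4 and 71.1 FPKM in the Media libraries. These ranges overlapped in all 3 groups. The differences for Tfe3 were 0.0047 ± 0.066 in Hevin against Media, -0.085 ± 0.066 in LPS against Media and 0.090 ± 0.066 in Hevin against LPS. Under the other scalings Tfe3 was lower in LPS than in Media (-0.20 with upper quartile scaling, -0.37 with quantile normalization and -0.41 with the factors removed; limma adjusted p = 0.0206, 9.80e-04 and 5.42e-04) and higher in Hevin than in LPS (0.22 with upper quartile scaling, 0.42 with quantile normalization and 0.44 with the factors removed). On the FPKM scale, which is per gene length, Tfe3 was the most abundant of the 3 members. Tfeb stood at 0.182, 0.171, 0.124 and 0.164 of the Tfe3 level in Hevin, at 0.0769, 0.0841, 0.0414 and 0.0321 in LPS, and at 0.158, 0.175, 0.123 and 0.148 in Media. This ratio, which a scaling factor per library does not change, was lower in LPS than in both other groups in every number. Mitf stood at 0.463 to 0.589 of the Tfe3 level in Hevin, 0.3 to 0.451 in LPS and 0.325 to 0.469 in Media.

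The fourth gene of the family, Tfec, which is mainly expressed in macrophages and is no member of the 39, was highest in LPS, where Tfeb was lowest. Tfec had 50.4, 39.7, 43.9 and 45.0 FPKM in the Hevin libraries, 179, 176, 179.5 and 198 FPKM in the LPS libraries, and 68.5, 54.4, 68.2 and 68.6 FPKM in the Media libraries. The 3 groups did not overlap, with LPS highest and Hevin lowest. Tfec was lower in Hevin than in Media (-0.53 ± 0.069, limma adjusted p = 3.40e-04), higher in LPS than in Media (1.49 ± 0.069, limma adjusted p = 7.18e-08) and lower in Hevin than in LPS (-2.01 ± 0.069, limma adjusted p = 3.95e-09).

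Within the V-ATPase, members of both sectors were lower in Hevin than in Media, and 3 V0 members were lower in LPS than in Media. In Hevin against Media 5 of the 15 V-ATPase members tested were lower and 0 higher, where 10.6% of all genes were lower (without the block 1 of 15, where 3.1% of all genes were). Their log2 fold changes were -0.52 for Atp6v1h, -0.29 for Atp6v1b2, -0.25 for Atp6v1e1, -0.25 for Atp6v0e and -0.21 for Atp6v0d1. The Atp6v0e and Atp6v0d1 calls ended under quantile normalization and in 7 of the 12 fits that leave out 1 library each. Of the 5 V0 members 3 were lower in LPS than in Media (Atp6v0a1, Atp6v0d1 and Atp6v0d2), while 2 of 8 V1 members were higher and 0 lower with the deposited scaling, where 21.5% of all genes were higher and 22.2% lower. Without the block 2 of 5 V0 members were lower and 0 of 8 V1 members passed, where 13.2% of all genes were higher and 12.6% lower. With the factors removed 0 V1 members were higher and 6 lower, and with quantile normalization 0 and 8. Of all 11242 genes tested, 1085 were higher and 6328 lower with the factors removed, and 1839 and 2731 with quantile normalization. The 15 gave 2 higher and 6 lower in Hevin against LPS with the deposited scaling, but 10 and 2 with the factors removed, 12 and 1 with quantile normalization, and 7 and 3 with upper quartile scaling. The shares of all genes with the deposited scaling were 29.9% higher and 28.0% lower (22.0% and 19.7% without the block). Of the 11242 genes, 6355 were higher and 1400 lower with the factors removed. These counts were 3342 and 2647 with quantile normalization, and 4394 and 2357 with upper quartile scaling. Without the block the 15 gave 2 higher and 4 lower, and the calls of Atp6v1a (-0.20) and Atp6v1b2 (-0.15) ended. This Atp6v1b2 call was also lost in 10 of the 12 fits that leave out 1 library each.

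Atp6v0a1 (chr11:101009452-101063719), an isoform of the large V0 subunit that channels protons, had 60.9, 52.3, 48.6 and 56.3 FPKM in the Hevin libraries, 46.8, 47.0, 28.2 and 34.5 FPKM in the LPS libraries, and 62.9, 59.1, 53.0 and 59.6 FPKM in the Media libraries. The LPS libraries lay below all others, and numbers 3 and 4 were the lowest among them. The change was -0.60 ± 0.099 in LPS against Media (limma adjusted p = 6.61e-04) and 0.50 ± 0.099 in Hevin against LPS (limma adjusted p = 0.00147). Tcirg1, which encodes the a3 isoform of the same subunit and is no member of the 39, was higher in Hevin than in Media (0.36 ± 0.080) and, with the deposited scaling, in LPS than in Media (0.26 ± 0.080; -0.16 with quantile normalization and -0.068 with the factors removed). Neither Tcirg1 call held without the block (adjusted p 0.0959 for Hevin and 0.134 for LPS). Atp6v0a1 stood at 0.46, 0.474, 0.384 and 0.397 of the Tcirg1 level in Hevin, at 0.335, 0.417, 0.251 and 0.311 in LPS, and at 0.525, 0.636, 0.614 and 0.602 in Media. Hevin and LPS both lay below Media in this ratio within each number, and LPS was below Hevin.

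Atp6v0d2 (chr4:19876841-19922605), a V0 subunit isoform known from mouse osteoclasts and macrophages, was the least abundant V-ATPase member. It had 8.63, 13.7, 10.1 and 9.23 FPKM in the Hevin libraries, 5.79, 5.90, 4.43 and 5.37 FPKM in the LPS libraries, and 8.44, 9.32, 7.53 and 8.91 FPKM in the Media libraries. The LPS libraries lay below all others and Hevin and Media overlapped, with Hevin 2 the highest. The change was -0.59 ± 0.10 in LPS against Media (limma adjusted p = 0.00103) and 0.83 ± 0.10 in Hevin against LPS (limma adjusted p = 5.80e-05), and Hevin against Media gave 0.24 ± 0.10 (limma adjusted p = 0.129). Of the summed FPKM of both d isoforms, Atp6v0d2 held 6.04% to 8.27% in Hevin, 3.83% to 4.54% in LPS and 5.04% to 5.58% in Media, so the 3 groups did not overlap in this share. Its partner isoform Atp6v0d1, used in most cells, averaged 132 ± 17.2 FPKM in Hevin, 125 ± 20.5 in LPS and 152 ± 13.1 in Media (SD, n = 4 each), and was lower in both treatments than in Media (-0.21 and -0.29). Neither Atp6v0d1 call held without the block. Atp6v0b, a proteolipid subunit, and Atp6v0e, a small membrane subunit, were the other V0 members tested. Atp6v0b gave 0.18 ± 0.074 (limma adjusted p = 0.0744) and Atp6v0e -0.14 ± 0.068 (limma adjusted p = 0.129) in LPS against Media. Atp6v0b turned to -0.32 with quantile normalization (limma adjusted p = 0.0152), and Atp6v0e was lower under the other scalings (-0.25 with upper quartile scaling, -0.57 with quantile normalization and -0.46 with the factors removed).

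In the V1 sector the largest differences were in Atp6v1h (chr1:5070018-5162529), the subunit that in yeast is needed for pump activity. Atp6v1h had 91.6, 127, 87.0 and 86.0 FPKM in the Hevin libraries, 147, 194, 164 and 159 FPKM in the LPS libraries, and 123, 165, 141 and 132 FPKM in the Media libraries. Hevin was lowest in every number, and every Hevin library was below every LPS library, while Hevin 2 overlapped Media. Atp6v1h was lower in Hevin than in Media (-0.52 ± 0.067, limma adjusted p = 2.80e-04, 0.0403 without the block), a call held under each of the alternatives tried. The difference in Hevin against LPS was -0.77 ± 0.067 (limma adjusted p = 3.40e-06). For LPS against Media it was 0.24 ± 0.067 (limma adjusted p = 0.0135; 0.233 without the block), but -0.19 with quantile normalization and -0.086 with the factors removed. Relative to Atp6v1a, the catalytic subunit gene, Atp6v1h stood at 0.422, 0.465, 0.493 and 0.49 in Hevin, at 0.574, 0.684, 0.824 and 0.712 in LPS, and at 0.509, 0.623, 0.741 and 0.668 in Media. Within every number this ratio was lowest in Hevin and highest in LPS.

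Atp6v1e1 (chr6:120794305-120822793), a subunit of the outer stalk that holds the sectors together, had 94.7, 114, 93.5 and 103 FPKM in the Hevin libraries, 128, 159.6, 139 and 152 FPKM in the LPS libraries, and 102, 151, 112 and 121 FPKM in the Media libraries. Hevin libraries lay below all LPS libraries, and Media overlapped both. The difference was -0.25 ± 0.062 in Hevin against Media (limma adjusted p = 0.0159; 0.273 without the block) and -0.51 ± 0.062 in Hevin against LPS (limma adjusted p = 4.56e-05; on the log2 scale -0.014 with quantile normalization). LPS against Media gave 0.26 ± 0.062 with the deposited scaling (adjusted p 0.136 without the block), -0.18 with quantile normalization and -0.065 with the factors removed. The Atp6v1e1 call in Hevin against Media was lost in 4 of the 12 fits that leave out 1 library each. Atp6v1b2, the ATP-binding partner of Atp6v1a, averaged 256 ± 19.2 FPKM in Hevin, 284 ± 26.6 in LPS and 312 ± 16.9 in Media (SD, n = 4 each). Its Hevin libraries all lay below the Media libraries (-0.29 ± 0.056, limma adjusted p = 0.00424; 0.0769 without the block). Atp6v1c1, Atp6v1d and Atp6v1g1, parts of the stalks, and the accessory genes Atp6ap1 and Atp6ap2, which act in assembly, passed in none of the comparisons with the deposited scaling. Their log2 fold changes ran between -0.17 (Atp6ap1, LPS against Media) and 0.14 (Atp6v1g1, Hevin against Media). In the LPS comparison with Media all 5 were lower with quantile normalization and with the factors removed. Quantile normalization gave -0.61 for Atp6ap1, -0.47 for Atp6v1c1, -0.43 for Atp6ap2, -0.34 for Atp6v1g1 and -0.30 for Atp6v1d, with Atp6ap2 and Atp6v1g1 turned in sign.

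Levels of the V0 and V1 members in Media were ordered on the FPKM scale per gene length. The order began with Atp6v0b (361 ± 33.1), Atp6v1b2 (312 ± 16.9) and Atp6v1a (224 ± 36.0). It ended with Atp6v1d (61.3 ± 7.93), Atp6v0a1 (58.6 ± 4.14) and Atp6v0d2 (8.55 ± 0.767). Atp6v0b and Atp6v1b2 differed by more than 1 SD of either, while Atp6v1d and Atp6v0a1 differed by less than their SDs. Between them stood Atp6v0e, Atp6v0d1, Atp6v1h, Atp6v1f, Atp6v1e1, Atp6v1c1 and Atp6v1g1. Summed over the 5 V0 members the level was 635 to 710.2 FPKM in Hevin, 652 to 797 in LPS and 679 to 828 in Media. Over the 8 V1 members it was 902 to 1199.5 FPKM in Hevin, 1110.0 to 1359.8 in LPS and 1076 to 1296 in Media.

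**Figure D3:**
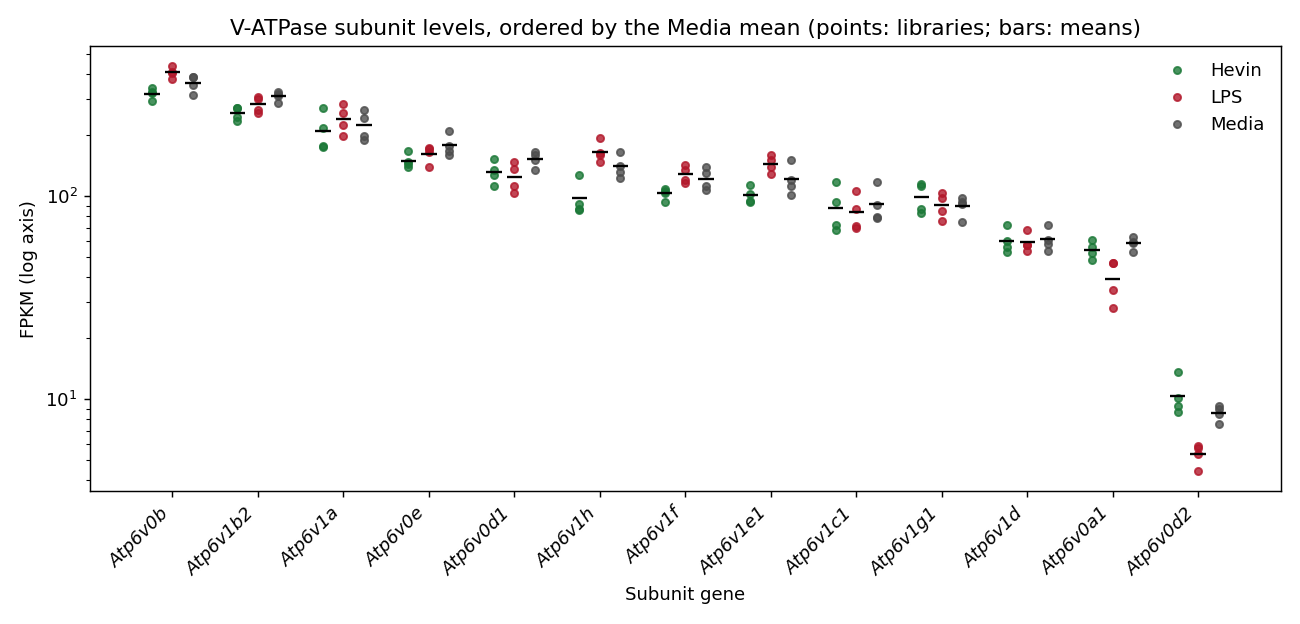
Levels in FPKM on a log axis of the 13 V0 and V1 member genes tested, ordered by their Media mean. Each library is 1 point, with a bar at each group mean for Hevin, LPS and Media. The LPS points of Atp6v0a1 and Atp6v0d2 lie below all others of the same gene, and the Hevin points of Atp6v1h lie below the LPS points. These levels use the deposited scaling.

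Among lysosomal membrane proteins, Scarb2 and Laptm5 were higher in Hevin and lower in LPS, each against Media. Scarb2 (chr5:92441314-92506833) encodes the receptor that carries glucocerebrosidase to lysosomes. It had 90.2, 102, 68.1 and 68.3 FPKM in the Hevin libraries, 43.5, 38.2, 28.9 and 31.7 FPKM in the LPS libraries, and 64.3, 67.3, 44.8 and 48.3 FPKM in the Media libraries. The groups did not overlap at all: Hevin was highest and LPS lowest. The differences were 0.54 ± 0.067 in Hevin against Media (limma adjusted p = 2.29e-04; 0.101 without the block), -0.64 ± 0.067 in LPS against Media (limma adjusted p = 2.37e-05) and 1.18 ± 0.067 in Hevin against LPS (limma adjusted p = 1.21e-07). Within each number Hevin was above Media and LPS was below it.

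Laptm5 (chr4:130913125-130936141), a lysosomal protein of blood cell lineages, had 552, 566, 429.5 and 523 FPKM in the Hevin libraries, 364, 348, 229 and 281 FPKM in the LPS libraries, and 461, 488, 348 and 412 FPKM in the Media libraries. Every Hevin library was above every LPS library, and Media overlapped both. Laptm5 gave 0.28 ± 0.065 in Hevin against Media (limma adjusted p = 0.0114; 0.359 without the block), -0.50 ± 0.065 in LPS against Media (limma adjusted p = 1.32e-04) and 0.77 ± 0.065 in Hevin against LPS (limma adjusted p = 2.62e-06). The first of these calls ended without Hevin 3 or Hevin 4.

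The abundant membrane glycoprotein genes Lamp1 and Lamp2 depended on the scaling in both LPS comparisons. Lamp1 (chr8:13159161-13175338) had 792, 828, 708 and 753 FPKM in the Hevin libraries, 818, 784, 695 and 764 FPKM in the LPS libraries, and 747, 741, 692 and 739 FPKM in the Media libraries. The groups overlapped, and its differences were 0.076 ± 0.055 in Hevin against Media, 0.067 ± 0.055 in LPS against Media and 0.0093 ± 0.055 in Hevin against LPS, none past the threshold with the deposited scaling. For LPS against Media Lamp1 was -0.65 with quantile normalization (limma adjusted p = 4.70e-05) and -0.26 with the factors removed (limma adjusted p = 0.00148). It was higher in Hevin than in LPS under the other scalings (0.14 with upper quartile scaling, 0.90 with quantile normalization and 0.37 with the factors removed), and in Hevin than in Media with quantile normalization (0.25). Lamp2 (chrX:38401357-38456454), whose product also takes part in chaperone-mediated autophagy, had 173, 156, 122 and 126 FPKM in the Hevin libraries, 187, 165, 149 and 152 FPKM in the LPS libraries, and 165, 146, 130.1 and 141 FPKM in the Media libraries. Numbers 1 and 2 were higher than numbers 3 and 4 in every group. Lamp2 was lower in Hevin than in LPS with the deposited scaling (-0.19 ± 0.060, limma adjusted p = 0.0201; 0.252 without the block), but the value was 0.34 with quantile normalization and 0.17 with the factors removed. For LPS against Media Lamp2 gave 0.16 ± 0.060 (limma adjusted p = 0.0501), but -0.27 with quantile normalization and -0.17 with the factors removed.

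Mcoln1, the gene of a lysosomal calcium channel, averaged 25.3 ± 1.67 FPKM in Hevin, 18.8 ± 3.08 in LPS and 21.9 ± 3.17 in Media (SD, n = 4 each). It was higher in Hevin than in LPS (0.42 ± 0.099, limma adjusted p = 0.00383). Its value in LPS against Media, -0.21 ± 0.099, did not pass with the deposited scaling but did under the others (-0.33 with upper quartile scaling, -0.28 with quantile normalization and -0.52 with the factors removed). Npc1, which exports cholesterol from lysosomes, and Cln3, mutated in a childhood storage disease of neurons, were lower in LPS than in Media (-0.22 ± 0.073 and -0.27 ± 0.079), and both calls ended without the block. Npc1 also lost its call when LPS 2, LPS 3, Media 2 or Media 3 was left out.

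Most hydrolases and their cofactors were higher in Hevin than in LPS. Of 12, 10 were higher and 0 lower in Hevin against LPS (9 and 0 without the block, 11 to 12 and 0 under the other scalings), and Neu1 and Npc2 did not pass. Hevin against Media had 6 higher and 0 lower, which became 0 and 0 without the block or without the libraries numbered 3, and 1 and 0 without those numbered 2. The counts in LPS against Media were 1 higher and 8 lower. Without the block 3 of those 12 were lower and 1 higher, without the libraries numbered 3 the counts were 5 and 1, and with the factors removed 11 were lower and 0 higher. Of all genes tested, 29.9% were higher and 28.0% lower in Hevin against LPS (22.0% and 19.7% without the block). In Hevin against Media these shares were 10.8% and 10.6% (4.27% and 3.1% without the block). In LPS against Media they were 21.5% and 22.2% (13.2% and 12.6% without it). With the factors removed, 6328 of the 11242 genes tested were lower and 1085 higher in LPS against Media. In Hevin against LPS 4394 were higher with upper quartile scaling, 3342 with quantile normalization and 6355 with the factors removed.

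Among the glycosidases, Hexa (chr9:59539540-59565109), which encodes the alpha subunit of beta-hexosaminidase, had 158, 165, 131 and 153 FPKM in the Hevin libraries, 117, 100.0, 73.0 and 90.9 FPKM in the LPS libraries, and 146, 139, 108 and 121 FPKM in the Media libraries. Hevin lay above all LPS libraries and Media overlapped both. Hexa gave 0.25 ± 0.069 in Hevin against Media (limma adjusted p = 0.0268; 0.374 without the block, and the call was lost in 7 of the 12 fits that leave out 1 library), -0.44 ± 0.069 in LPS against Media (limma adjusted p = 4.93e-04) and 0.68 ± 0.069 in Hevin against LPS (limma adjusted p = 1.10e-05). Glb1 (chr9:114401076-114474898), the beta-galactosidase gene, had 25.5, 26.4, 24.5 and 28.6 FPKM in the Hevin libraries, 20.1, 14.7, 16.6 and 19.6 FPKM in the LPS libraries, and 22.3, 19.0, 19.0 and 21.4 FPKM in the Media libraries. The Hevin libraries lay above all others, and LPS overlapped Media. Its differences were 0.35 ± 0.077 in Hevin against Media (limma adjusted p = 0.00867; 0.0707 without the block) and 0.55 ± 0.077 in Hevin against LPS (limma adjusted p = 1.32e-04).

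Gaa, which degrades glycogen, and Gusb, the beta-glucuronidase gene, were lower in LPS than in Media (-0.27 ± 0.082 and -0.45 ± 0.089) and higher in Hevin than in LPS (0.44 ± 0.082 and 0.48 ± 0.089). The LPS against Media call of Gaa ended without the block (adjusted p 0.208) and when LPS 3, LPS 4, Media 2 or Media 3 was left out. Against Media, Hevin gave 0.17 ± 0.082 for Gaa and 0.032 ± 0.089 for Gusb, neither past the threshold. The sialidase gene Neu1 passed in none of the comparisons with the deposited scaling (-0.048 ± 0.071, -0.15 ± 0.071 and 0.10 ± 0.071 in Hevin against Media, LPS against Media and Hevin against LPS). Under the other scalings it was lower in LPS than in Media (-0.27 with upper quartile scaling, -0.28 with quantile normalization and -0.47 with the factors removed) and higher in Hevin than in LPS (0.23 with upper quartile scaling, 0.26 with quantile normalization and 0.45 with the factors removed).

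The lipid hydrolases were all lower in LPS than in Media and all higher in Hevin than in LPS. Smpd1 (chr7:105554360-105558389), the acid sphingomyelinase gene, had 11.8, 10.8, 11.6 and 14.1 FPKM in the Hevin libraries, 8.61, 6.44, 8.07 and 7.80 FPKM in the LPS libraries, and 12.4, 11.8, 12.3 and 13.9 FPKM in the Media libraries. Every LPS library was below every other, while Hevin and Media overlapped. Smpd1 gave -0.64 ± 0.079 in LPS against Media (limma adjusted p = 8.49e-05), 0.58 ± 0.079 in Hevin against LPS (limma adjusted p = 1.04e-04) and -0.059 ± 0.079 in Hevin against Media (limma adjusted p = 0.647).

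Lipa (chr19:34492318-34527474), the acid lipase that splits cholesteryl esters and triglycerides, had 675, 659, 501 and 565 FPKM in the Hevin libraries, 535, 409, 283 and 349 FPKM in the LPS libraries, and 625, 551, 421 and 458 FPKM in the Media libraries. Here the groups overlapped across numbers, though within each number Hevin was highest and LPS lowest. Lipa gave -0.40 ± 0.076 in LPS against Media (limma adjusted p = 0.00151; 0.137 without the block), 0.64 ± 0.076 in Hevin against LPS (limma adjusted p = 4.03e-05) and 0.23 ± 0.076 in Hevin against Media (limma adjusted p = 0.0528), which passed under the other scalings (0.24 with upper quartile scaling, 0.33 with quantile normalization and 0.26 with the factors removed).

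Asah1 (chr8:41340197-41374773), the acid ceramidase gene, had 109.7, 114, 90.0 and 93.6 FPKM in the Hevin libraries, 81.4, 66.6, 62.9 and 75.8 FPKM in the LPS libraries, and 96.8, 87.4, 76.9 and 76.1 FPKM in the Media libraries. Hevin stood above all LPS libraries. Its differences were 0.27 ± 0.076 in Hevin against Media (limma adjusted p = 0.0278; 0.208 without the block), -0.23 ± 0.076 in LPS against Media (limma adjusted p = 0.0295; 0.168 without the block) and 0.50 ± 0.076 in Hevin against LPS (limma adjusted p = 2.24e-04). Both Asah1 calls against Media were each lost in 6 of the 12 fits that leave out 1 library each. Ppt1, which removes palmitate from proteins, gave -0.30 ± 0.088 in LPS against Media and 0.24 ± 0.088 in Hevin against LPS. Neither Ppt1 call held without the block, and they were lost in 4 and 6 of those fits. Ppt1 shares exonic sequence with Cap1 on the opposite strand, which stood at 371 to 554 FPKM, and whether reads were counted by strand is not given in the sources used here.

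Psap (chr10:60277627-60302597), the precursor of the saposins that present lipids to these enzymes, was among the most abundant members, with 925, 905, 728 and 817 FPKM in the Hevin libraries, 690.2, 539, 417 and 459 FPKM in the LPS libraries, and 815, 730.1, 573 and 630.0 FPKM in the Media libraries. Hevin lay above all LPS libraries, and within each number Hevin was above Media and LPS below it. Psap gave 0.30 ± 0.071 in Hevin against Media (limma adjusted p = 0.0120; 0.322 without the block), -0.40 ± 0.071 in LPS against Media (limma adjusted p = 0.00111; 0.0881 without the block) and 0.70 ± 0.071 in Hevin against LPS (limma adjusted p = 1.17e-05). The peptidase gene Tpp1 was higher in Hevin than in Media (0.24 ± 0.062, limma adjusted p = 0.0172; 0.148 without the block) and than in LPS (0.27 ± 0.062, limma adjusted p = 0.00344). Npc2, a soluble cholesterol carrier that works with Npc1, averaged 175 ± 10.0 FPKM in Hevin, 187 ± 24.4 in LPS and 149 ± 10.2 in Media (SD, n = 4 each). Npc2 was higher in both treatments than in Media (0.23 ± 0.069 for Hevin and 0.32 ± 0.069 for LPS). But its LPS value was -0.092 with quantile normalization and -0.0074 with the factors removed. Its Hevin call ended without the block and in 8 of the 12 fits that leave out 1 library each. The Hevin against Media call of Tpp1 ended in 5 of those fits, and that of Psap ended without Hevin 3 or Hevin 4.

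Sqstm1 (chr11:50199366-50210827), a receptor that binds ubiquitin-tagged cargo to the forming autophagosome, was the most abundant member. It had 2305, 2703, 2266 and 2209 FPKM in the Hevin libraries, 5434, 6802, 5132 and 4799.6 FPKM in the LPS libraries, and 2761, 3447, 2809.7 and 2495 FPKM in the Media libraries. The LPS libraries lay above all others, and Hevin was below Media within each number. The difference of Sqstm1 in LPS against Media was 0.94 ± 0.065 (limma adjusted p = 9.58e-07), with 0.61 when the factors were removed but -0.023 with quantile normalization. Hevin against LPS gave -1.22 ± 0.065 (limma adjusted p = 7.82e-08), with -0.30 under quantile normalization. Hevin against Media gave -0.27 ± 0.065 (limma adjusted p = 0.0121; 0.266 without the block), a call that ended without Hevin 2 or Media 3.

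**Figure D4:**
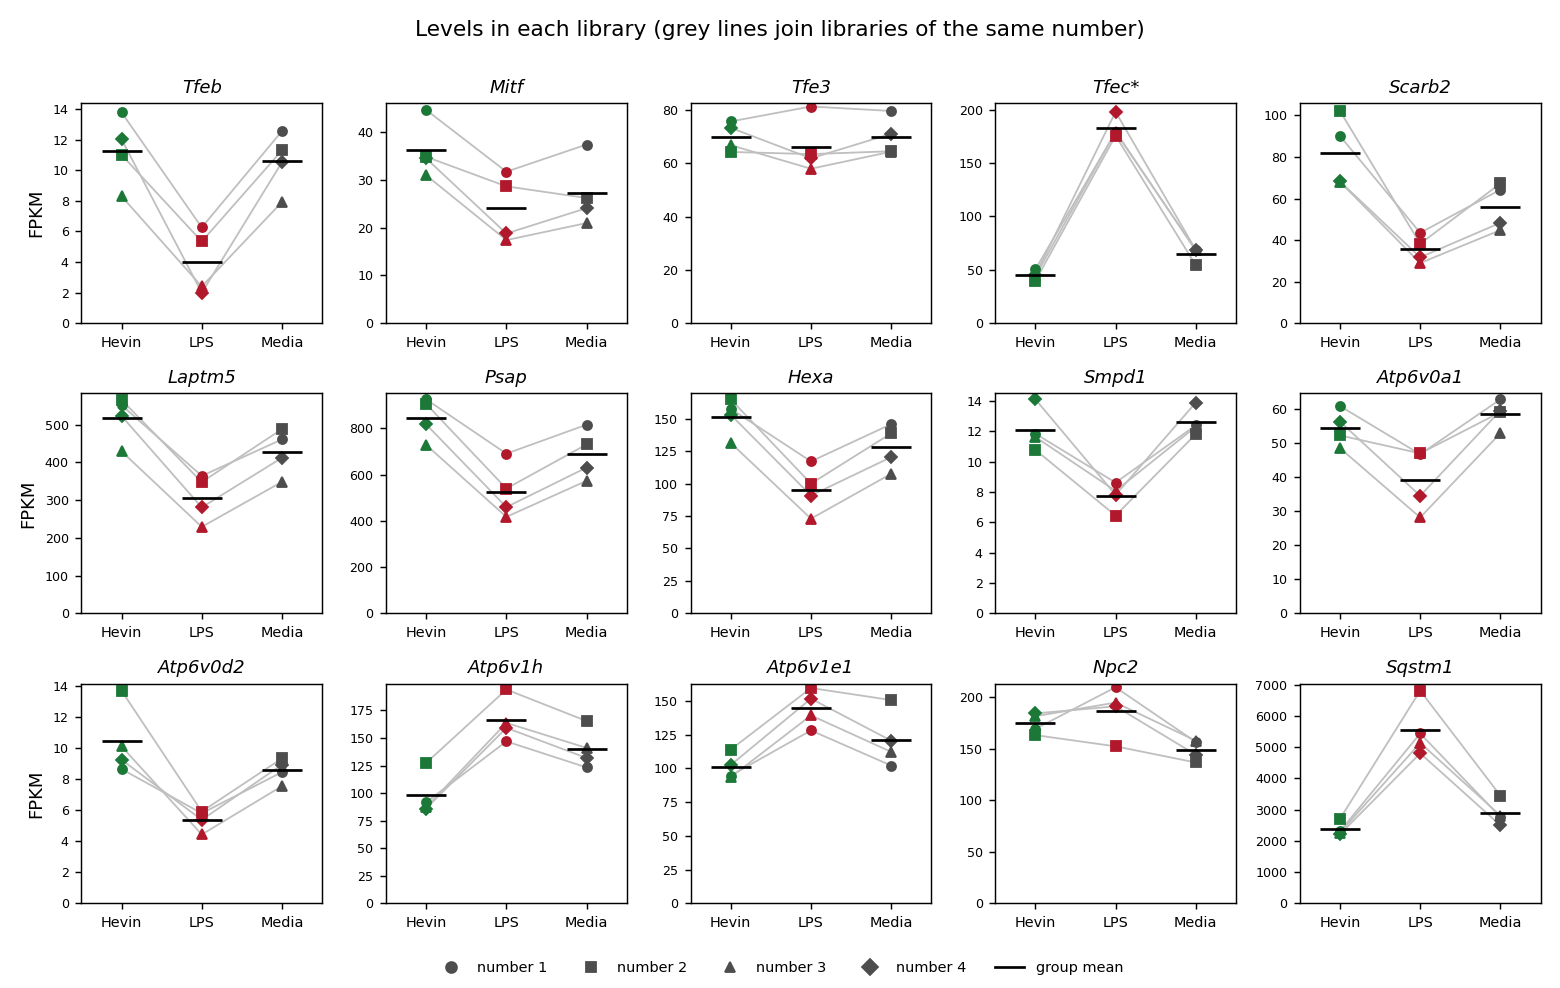
Level in FPKM, on linear axes from 0, of 14 members and of Tfec (starred, no member) in each library, by group (Hevin, LPS, Media), with the marker shape giving the library number, grey lines joining libraries of a number and black bars the group means. Tfeb, Scarb2, Smpd1, Atp6v0a1 and Atp6v0d2 have all LPS points below the others, and Tfec and Sqstm1 have them above with the deposited scaling.

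Members differed between library numbers. Number 3 was lowest for 28 of the 38 members in Hevin, 25 in LPS and 27 in Media. Averaged over the groups on the log2 scale, 30 of 38 members were lowest in number 3, and 19 were highest in number 1 and 15 in number 2. The median deviation of the members was 0.13, 0.12, -0.16 and -0.06 in numbers 1 to 4, against 0.05, -0.00, -0.04 and -0.01 for all genes tested. The summed level of the microglia markers was also highest in number 1 and lowest in number 3 in each group. These sums were 1988 and 1406 FPKM in Hevin, 989.6 and 694.6 in LPS, and 1055 and 800.5 in Media. Markers of other cells varied between the numbers too. Of 6 monocyte and neutrophil markers 5 were listed, and their summed level was 1550 to 1637 FPKM in the 3 libraries numbered 2 and 32.7 to 95.6 in the rest. The 5 endothelial markers summed to 26.3 to 30.0 FPKM in number 1, 60.7 to 72.5 in number 2, 138 to 156 in number 3 and 91.7 to 106 in number 4. With the block 3 of the 4 monocyte and neutrophil markers tested were higher in LPS than in Media and all 4 were lower in Hevin than in LPS, and 0 passed without the block. The part of these cells in the results was not tested.

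The label of microglia was checked against 10 markers, all of them listed, whose summed level was 1406 to 1988 FPKM in Hevin, 695 to 989.6 in LPS and 800.5 to 1055 in Media. Csf1r and C1qa were among the highest of them, while Tmem119 stood at only 0.531 to 3.23 FPKM. In Hevin against Media 9 of the 10 were higher and 0 lower (6 without the block), and in LPS against Media 1 was higher and 4 lower. They moved with the group, as the hydrolases did, and their part in those results was not tested. The 6 markers of border macrophages, led by Pf4, summed to 595 to 801 FPKM in Hevin, 698 to 859 in LPS and 813 to 948 in Media. Summed levels of 6 neuron markers (at most 20.5 FPKM), 6 astrocyte markers (at most 14.3) and 6 of 7 oligodendrocyte markers (at most 13.1) were low in every library, with Rbfox3 at or near 0. Of 6 lymphocyte markers only Cd79a was listed, at up to 1.19 FPKM. Depth, in reads recovered from the FPKM steps, was 21389784 to 27361665 in Hevin, 19395973 to 27263115 in LPS and 18343996 to 25910349 in Media.

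Members whose windows hold the E-box were compared with those whose windows do not, as counts. Of the 9 with CACGTG, 1 was higher and 2 lower in Hevin against Media, 0 and 3 in LPS against Media, and 3 and 2 in Hevin against LPS. Of the 22 tested members with a window and no CACGTG, the counts were 7 and 2, 3 and 10, and 12 and 4. Among all genes tested, 10.8% were higher and 10.6% lower in Hevin against Media. The shares were 21.5% and 22.2% in LPS against Media, and 29.9% and 28.0% in Hevin against LPS. These counts and shares use only the deposited scaling and the block. Of the 5 members shown above, Atp6v0d1 and Cln3 were lower in LPS than in Media (-0.29 and -0.27), and Mcoln1, Atp6v0e and Atp6v1a gave -0.21, -0.14 and 0.10 without passing with the deposited scaling.

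Further lysosomal genes outside the 39 were followed as lists. Over all genes tested the shares to set beside their counts were 10.8% higher and 10.6% lower in Hevin against Media. They were 21.5% and 22.2% in LPS against Media, and 29.9% and 28.0% in Hevin against LPS. These shares hold for the deposited scaling with the block. Without the block, in the same order, they were 4.27% and 3.1%, 13.2% and 12.6%, and 22.0% and 19.7%. Of the 11242 genes, 1085 were higher and 6328 lower in LPS against Media with the factors removed, and 1839 and 2731 with quantile normalization. In Hevin against LPS these counts were 6355 and 1400, and 3342 and 2647. Of 29 other hydrolases tested, 16 were higher and 1 lower in Hevin against Media (7 and 1 without the block), 3 and 13 in LPS against Media (2 and 8 without the block, 2 and 23 with the factors removed), and 20 and 4 in Hevin against LPS. The largest fall in Hevin against Media was in Hgsnat, which acetylates heparan sulfate (-0.63 ± 0.093). The phosphatase gene Acp5 rose most in LPS against Media (0.99 ± 0.12) and Naglu, an enzyme of heparan sulfate breakdown, fell most (-0.61 ± 0.091). Naglu also rose most in Hevin against LPS (1.19 ± 0.091) and Acp5 fell most (-0.79 ± 0.12). Of 12 cathepsins, the lysosomal proteases, 7 were higher and 0 lower in Hevin against Media (2 without the block), led by Ctsh (0.68 ± 0.080). LPS against Media gave 3 higher, led by Ctsc (1.03 ± 0.081), and 1 lower, Ctsd (-0.45 ± 0.081; adjusted p 0.0506 without the block), while the fit without the block gave 2 and 0, quantile normalization 2 and 6 and removal of the factors 2 and 5. Hevin against LPS gave 5 higher, led by Ctsd (0.94 ± 0.081), and 2 lower, led by Ctsc (-1.02 ± 0.081), against 9 and 1 with quantile normalization and 10 and 1 with the factors removed.

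Of 25 other lysosomal membrane genes tested, 2 were higher and 2 lower in Hevin against Media (1 and 1 without the block), 3 and 10 in LPS against Media (2 and 6 without the block, 1 and 20 with the factors removed), and 11 and 4 in Hevin against LPS (9 and 2 without the block, 18 and 1 with the factors removed). Mcoln2, a channel gene related to Mcoln1, had 18.4, 20.7, 18.7 and 17.9 FPKM in the Hevin libraries, 135, 121, 149 and 176 FPKM in the LPS libraries, and 39.3, 38.9, 46.7 and 41.0 FPKM in the Media libraries. The groups did not overlap, with LPS highest and Hevin lowest. Its differences were -1.09 ± 0.10 in Hevin against Media (limma adjusted p = 3.21e-05), 1.78 ± 0.10 in LPS against Media (limma adjusted p = 2.61e-07) and -2.87 ± 0.10 in Hevin against LPS (limma adjusted p = 4.46e-09). The largest rise in Hevin against Media was in Slc17a5, a sialic acid exporter (0.56 ± 0.098). The channel gene Tpcn1 fell most in LPS against Media (-1.01 ± 0.12) and rose most in Hevin against LPS (1.37 ± 0.12).

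Among 18 genes that regulate MiT/TFE factors, which include Tfec and the mTORC1 and Ragulator parts, 1 was higher and 5 lower in Hevin against Media (0 and 1 without the block), 5 and 3 in LPS against Media (2 and 1 without the block, 1 and 13 with the factors removed), and 5 and 8 in Hevin against LPS (3 and 4 without the block, 11 and 2 with the factors removed). Besides Tfec the leading genes were Lamtor4, a Ragulator subunit (0.51 ± 0.15 in Hevin against Media, with adjusted p 0.153 without the block, and 0.65 ± 0.15 in Hevin against LPS), and Tsc2, an inhibitor of mTORC1 signalling (-0.33 ± 0.085 in LPS against Media). Of 19 autophagy genes tested, 6 were higher and 0 lower in Hevin against Media (4 and 0 without the block), 3 and 3 in LPS against Media (3 and 2 without the block, 2 and 14 with the factors removed), and 7 and 5 in Hevin against LPS (13 and 2 with the factors removed). With the deposited scaling the autophagy counts were 15.8% higher and 15.8% lower in LPS against Media, below the shares of all genes, and 36.8% higher and 26.3% lower in Hevin against LPS, near them. The receptor gene Calcoco1 rose most in Hevin against Media (0.82 ± 0.096) and in Hevin against LPS (1.14 ± 0.096). Tax1bp1, another cargo receptor, rose most in LPS against Media (0.74 ± 0.11) and Uvrag fell most (-0.36 ± 0.070; adjusted p 0.123 without the block), and in Hevin against LPS the receptor gene Optn fell most (-0.74 ± 0.083).

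Of 16 genes of lysosomal sorting, 1 was higher and 2 lower in Hevin against Media (0 and 0 without the block), 2 and 5 in LPS against Media (1 and 3 without the block, 0 and 14 with the factors removed), and 8 and 4 in Hevin against LPS (4 and 2 without the block, 13 and 0 with the factors removed). Gnptab, a subunit of the enzyme that begins the mannose 6-phosphate tag on hydrolases, fell most in LPS against Media (-0.99 ± 0.094; adjusted p 0.0925 without the block) and rose most in Hevin against LPS (1.16 ± 0.094). The receptor of that tag, Igf2r, rose most in LPS against Media (0.53 ± 0.090) and fell most in Hevin against LPS (-0.46 ± 0.090). Both Igf2r calls ended without the block (adjusted p 0.0514 and 0.0621) and with the factors removed (0.21 and -0.12). The adaptor gene Gga2 rose most in Hevin against Media (0.38 ± 0.073) and Gnptg, a further subunit of the tagging enzyme, fell most (-0.28 ± 0.079).

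Of 11 V-ATPase assembly and regulation genes, 1 was higher and 1 lower in Hevin against Media (0 and 0 without the block), 1 and 5 in LPS against Media (1 and 2 without the block, 1 and 8 with the factors removed), and 6 and 3 in Hevin against LPS (3 and 2 without the block, 9 and 2 with the factors removed). The assembly factor Ccdc115 fell most in Hevin (-0.49 ± 0.089; adjusted p 0.109 without the block) and in LPS (-0.84 ± 0.089), each against Media. Tmem9 rose most in Hevin against Media (0.34 ± 0.097; adjusted p 0.424 without the block and 0.0552 with quantile normalization) and in Hevin against LPS (0.66 ± 0.097), Ncoa7, which binds the V-ATPase, rose most in LPS against Media (0.68 ± 0.11), and the assembly factor Vma21 fell most in Hevin against LPS (-0.999 ± 0.20). Of 5 further V-ATPase subunits listed, Tcirg1 was the 1 higher in Hevin against Media, and 0 were without the block. Atp6v0a2 was lower in LPS than in Media (-0.30 ± 0.068; adjusted p 0.0505 without the block) and it was higher in Hevin than in LPS (0.41 ± 0.068).

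Some members share exonic sequence with another annotated gene in GENCODE M21. Glb1 shares it on the same strand with Tmppe (5.19 to 9.58 FPKM). On the opposite strand Cln3 shares it with Apobr (9.84 to 18.5 FPKM), Atp6v1e1 with Slc25a18 (0.725 to 2.18 FPKM), Atp6v1h with Rgs20 (0.0143 to 0.59 FPKM), Hexa with Tmem202 (0.521 to 2.22 FPKM) and Lamp1 with Grtp1 (0.139 to 0.906 FPKM). These partners stood at lower levels than the member named beside each. Members of paired isoforms and subunit families were counted by the authors as separate genes, and how reads that fit more than 1 gene were treated is not given in the sources used here.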

How the data were processed

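Poly(A) RNA of 12 libraries was measured, with groups and numbers taken from the sample titles. Levels are FPKM as the authors deposited them, for 14541 genes. Bowtie2 2.3.5.1, Trimmomatic 0.39, FastQC 0.11.7, Subread 1.6.3 with featureCounts, edgeR 3.30.3, R 4.0.0 and the build mm10 are listed in the submitters' processing notes, without roles. Which annotation was used, how rows were chosen and whether counting used strand is not given in the sources used here.

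In every row the FPKM values of the 12 libraries were whole multiples of the value of 1 read (100% of rows, within 0.1 of a whole number), which gave the reads per library in the listed genes (18343996 to 27361665) and the scaling factors. Intervals from these reads would cover counting error only. A gene was tested if 4 or more libraries had 1 FPKM or more, which left 11242. One limma model (version 3.58.1, R 4.3.3) of log2(FPKM + 1) over all 12 libraries, with a trend of variance on level and the library number as a block, gave the 3 comparisons. Benjamini-Hochberg adjustment covered all genes tested, with 0.05 as threshold. The test was also run on simulated data with noise and number effects of the form the model assumes. That run cannot check the scaling between libraries or whether the numbers are true pairs. Libraries of the same number deviated together from their group means in all 12 pairs (correlation 0.23 to 0.784). The 36 pairs of different numbers gave -0.592 to 0.528, so these ranges overlapped. LPS 4 followed Media 3 (0.528) and Hevin 3 (0.52) more than Media 4 (0.23) and Hevin 4 (0.392). The numbers were used as a block because the deposited column names join them. Beside calls that end without the block, that or the adjusted p without it is stated.

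Members and lists were chosen with earlier results of these data known. Values in every library are given for members called with an absolute log2 fold change of at least 0.5 and always for Tfeb, Tfe3, Mitf, Lamp1 and Lamp2. Of each further list the called gene with the largest change in each direction is named, except 1 that is not reported here. Tcirg1, Tfec and Mcoln2 are shown in more detail than this rule asks, a choice made after their values were seen. Alternatives were other pseudocounts, filters, scalings, voom on recovered reads and the removal of libraries. Gene positions and exon overlaps come from GENCODE M21 on GRCm38 and promoter windows from RefSeq on GRCm38.p6. Figures were drawn with matplotlib 3.10.9.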

Additional observations from a re-analysis of the deposited data

Results flagged for a closer look

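Among 114 sets of 4 libraries (38 members in 3 groups), 3 had 1 library far from the other 3, by the 95% critical value of Dixon's test, where chance flags about 1 in 20. Atp6v1h stood at 127.3 FPKM in Hevin 2, against 86.0 to 91.6 in the other Hevin libraries, and the Hevin against Media call held without Hevin 2. Gaa stood at 47.0 FPKM in Hevin 3, against 55.5 to 57.0 in the other Hevin libraries. Lamp1 stood at 692.3 FPKM in Media 3, against 738.5 to 747.5 in the other Media libraries.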

How the results depend on the processing

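Over 25 alternative settings, the scaling between libraries and the replicate block changed most calls, and pseudocounts of 0.1 and 5, the filters on low values and limma-voom on recovered reads kept every count of members within 1.5 times of the values given. The fit without the block uses the same log2 fold changes with larger errors. It gave 0 members higher and 1 lower in Hevin against Media, 2 and 8 in LPS against Media, and 16 and 5 in Hevin against LPS.

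Upper quartile scaling gave 2 members higher and 26 lower in LPS against Media, quantile normalization 0 and 36, and removal of the scaling factors 1 and 33. Hevin against LPS had 27 higher and 4 lower with upper quartile scaling, 34 and 2 with quantile normalization, and 32 and 3 with the factors removed. A fit of only both groups compared gave 5 lower there in place of 8. The counts over all genes under these scalings, given above, moved as well. The all-gene median moves with the factors by construction, and whether the deposited or the other scaling is closer to RNA per cell was not tested. Log2 fold changes that turned sign in LPS against Media with quantile normalization were -0.32 for Atp6v0b, -0.34 for Atp6v1a, -0.18 for Atp6v1e1, -0.34 for Atp6v1f, -0.34 for Atp6v1g1, -0.19 for Atp6v1h, -0.43 for Atp6ap2, -0.65 for Lamp1, -0.27 for Lamp2, -0.092 for Npc2, -0.023 for Sqstm1 and -0.16 for Tcirg1. With the factors removed they were -0.22 for Atp6v1a, -0.065 for Atp6v1e1, -0.26 for Atp6v1f, -0.32 for Atp6v1g1, -0.086 for Atp6v1h, -0.32 for Atp6ap2, -0.26 for Lamp1, -0.17 for Lamp2, -0.0074 for Npc2 and -0.068 for Tcirg1. For Hevin against LPS quantile normalization gave 0.28 for Atp6v0b, 0.44 for Atp6v0e, 0.36 for Atp6v1a, 0.40 for Atp6v1b2, 0.17 for Atp6v1f, 0.44 for Atp6ap2, 0.34 for Lamp2 and 0.42 for Npc2, and removal of the factors gave 0.011 for Atp6v0b, 0.24 for Atp6v0e, 0.15 for Atp6v1a, 0.21 for Atp6v1b2, 0.049 for Atp6v1f, 0.17 for Lamp2 and 0.27 for Npc2.

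Leaving out 1 library gave 3 to 10 members higher and 2 to 7 lower in Hevin against Media, 3 to 5 and 12 to 18 in LPS against Media, and 16 to 19 and 5 to 8 in Hevin against LPS. The fewest higher in Hevin against Media came without Hevin 3, with 3 higher and 3 lower. Without Hevin 2 these were 5 and 2, without Hevin 4 they were 5 and 3, without Media 1 or Media 2 5 were higher, and without Media 3 3 were lower. Without Hevin 4 there were 5 lower in Hevin against LPS. Leaving out the libraries numbered 2 gave 4 higher and 4 lower in Hevin against Media. Leaving out those numbered 3, an alternative chosen after seeing the data, gave 1 and 2 there and 16 and 5 in Hevin against LPS, and ended the Hevin against Media calls of Mitf and Glb1. edgeR and DESeq2 on recovered reads were planned and not run, since the deposited values are not counts. With 4 libraries a group, differences not past the threshold are not shown to be absent.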
